A study of Rattus norvegicus with 53 samples.

Results

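The 9 genes described here mark T cells in blood: the transcription factors Tcf7 and Lef1, the T-cell receptor subunits Cd3e and Cd3g, the coreceptors Cd4 and Cd8a, and the surface proteins Cd5, Cd28 and Il7r. They were taken by symbol from the annotation of a rat expression array. All 9 of 9 were found, through 14 of the 31042 probe sets and among 14217 genes with a probe set of their own. Cd8a had 3 probe sets, Cd3e, Il7r and Lef1 had a pair each, and the brightest probe set on average stands for its gene unless another is named.

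The study used fresh peripheral blood mononuclear cells (PBMCs) of healthy male Brown Norway (BN) rats of about 180 days as reporter cells. They were cultured for 6 h with 20% plasma of the same rat or of another rat, and the RNA of each culture was read on 1 of 53 arrays. All arrays therefore hold cells of 1 healthy strain, and the labelled groups differ in the serum. The BioBreeding (BB) rat is a model of type 1 diabetes: DRlyp/lyp rats carry the lymphopenia mutation and become diabetic, and the DR+/+ strain does not carry it.

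There were 8 groups. Autologous BN serum was used in 10 cultures, and serum of other BN rats (allogeneic BN) in 15, both of rats of 180 days. Serum of 60-day-old DRlyp/lyp rats was used in 4 cultures without and 4 with added IL-1RA, the interleukin-1 receptor antagonist, and serum of 60-day-old DR+/+ rats in 4. In 4 cultures the cytokine IL-1B was added to autologous serum. A further 6 cultures received 40-day serum of DRlyp/lyp rats injected with human IL-1RA (350 ug per kg per day for 10 days from day 30), and 6 that of DRlyp/lyp rats injected with saline (PBS). The labels of the arrays call the d40 IL-1RA serum supplemented, whereas the study's design describes treated rats, and the design is followed here. The labels do not say whether arrays of a group came from separate blood donors, so p-values measure the spread between arrays only.

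The protein TCF-1, made from Tcf7, and its relative LEF-1 bind DNA together with beta-catenin or with Groucho/TLE corepressors, and are abundant in naive and memory-precursor T cells. Their levels fall when a T cell is activated and differentiates. CD3 epsilon and gamma belong to the signalling part of the T-cell receptor, CD4 and CD8 alpha hold the receptor to MHC molecules, CD5 dampens its signal, CD28 gives costimulation, and the IL-7 receptor keeps resting T cells alive. In the rat, monocytes also carry CD4 and natural killer cells also carry CD8 alpha. In a bulk culture, fewer cells of a type and less RNA per cell cannot be told apart.

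Since a pair of the genes encode DNA-binding proteins, the RefSeq promoters (assembly GRCr8) of the set were searched for their recognition letters. Promoters of 8 of the 9 genes were matched, each 300 bases long with 250 before and 50 after the start of the transcript. The letters searched on both strands were CTTTGAT and CTTTGAA for TCF-1 and LEF-1, TGTGGTT for RUNX factors and AGGAAG for ETS factors. Shown are the 150 bases from 130 before to 20 after the start of both factors and of the marker promoters that held a match other than the ETS one, 5′ to 3′ in the direction of the gene, with matches to the first 3 motifs in capitals.
Tcf7: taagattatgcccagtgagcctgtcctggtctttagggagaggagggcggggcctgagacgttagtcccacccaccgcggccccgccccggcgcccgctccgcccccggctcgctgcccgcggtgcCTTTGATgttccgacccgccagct
Lef1: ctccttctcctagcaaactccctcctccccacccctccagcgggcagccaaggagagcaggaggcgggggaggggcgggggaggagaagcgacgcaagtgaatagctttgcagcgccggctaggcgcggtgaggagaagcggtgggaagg
Il7r: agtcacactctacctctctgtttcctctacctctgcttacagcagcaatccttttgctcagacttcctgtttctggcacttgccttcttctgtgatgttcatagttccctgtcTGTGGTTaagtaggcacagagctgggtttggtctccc
Cd28: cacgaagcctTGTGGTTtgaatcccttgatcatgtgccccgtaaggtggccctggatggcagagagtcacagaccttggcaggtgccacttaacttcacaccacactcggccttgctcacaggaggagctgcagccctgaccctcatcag

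These stretches lie at chr10:36954260-36954409 on the minus strand for Tcf7, chr2:222340583-222340732 on the plus strand for Lef1, chr2:60204898-60205047 on the minus strand for Il7r and chr9:69660186-69660335 on the plus strand for Cd28. The Tcf7 promoter holds CTTTGAT across its own start, from base -4 to base 3, as 1 of 8 matched genes, while 3.63% of 33469 rat promoters hold these letters. CTTTGAA was found in 0 of the 8 and in 5.4% of all promoters. TGTGGTT was found in Il7r (base -17 to -11) and Cd28 (base -120 to -114), 2 of 8, against 5.57% of all promoters. AGGAAG was found in 5 of 8 (Tcf7, Cd3e, Cd3g, Cd5 and Il7r) and in 34.5% of all promoters. The promoters of Tcf7 and Lef1 were rich in G and C, with 62.7% and 64.7% over the 300 bases, against 46.0% for Il7r, 50.3% for Cd28 and a median of 51.7% over all promoters.

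The 53 arrays fell into 2 sets by Ward clustering on all probe sets other than controls and these genes, and complete linkage and k-means placed all 53 of 53 the same way. The labels name no run or batch. The first set held 21 arrays: autologous BN numbers 1 to 6, allogeneic BN numbers 1 to 3 and all 12 arrays of the d40 sera. The second held 32: autologous BN numbers 7 to 10, allogeneic BN numbers 4 to 15, and all arrays with d60 serum or IL-1B. The difference between 3′ and 5′ actin control probe sets, a sign of how complete the labelled RNA was, averaged 3.58 ± 0.759 (SD, n = 21) in the first set and 2.58 ± 0.402 (SD, n = 32) in the second on the log2 scale. Levels are therefore given by set, and groups are compared within 1 set unless a sentence says that both sets were used.

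Tcf7 stood highest in the first set. On the log2 scale of the deposited values, autologous BN arrays had a lowest Tcf7 level of 10.11, a median of 11.09 and a highest of 11.30. The d40 PBS arrays ran from 10.19 through a median of 11 to 11.27, and the d40 IL-1RA arrays from 10.02 through 10.84 to 11.16. The 3 allogeneic BN arrays read 10.15, 10.67 and 10.70 for Tcf7. All 4 groups of the first set overlapped, and their means spanned 0.45 against a pooled SD of 0.43.

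In the second set the 4 autologous BN arrays read 7.62, 8.18, 8.22 and 9.68 for Tcf7. The 12 allogeneic BN arrays ran from 7.44 through a median of 8.03 to 9.17. Of the Tcf7 values, every one in the second set lay below those of the first except for d60 DR+/+ number 3 and d60 DRlyp/lyp plus IL-1RA number 3, which reached the lowest values there.
The arrays with IL-1B read 7.64, 8.89, 8.96 and 9.74. With d60 DRlyp/lyp serum Tcf7 read 7.88, 8.61, 8.91 and 9.35, and with IL-1RA added to that serum 8.59, 8.74, 9.36 and 10.04. With d60 DR+/+ serum Tcf7 read 9.51, 9.58, 9.59 and 10.21, the highest mean of the second set (9.73 ± 0.328, SD, n = 4).
The order of Tcf7 means in the second set ran from allogeneic BN (8.17) through autologous BN (8.42), d60 DRlyp/lyp (8.69), IL-1B (8.81) and d60 DRlyp/lyp plus IL-1RA (9.18) to d60 DR+/+. Each neighbouring pair in that order differed by less than the pooled SD of 0.66.

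Lef1 followed the same order of groups in both sets. In the first set its levels ran from 10.08 to 11.29 with autologous BN serum, from 10.14 to 10.90 with d40 PBS serum and from 10.22 to 11.10 with d40 IL-1RA serum, and read 10.03, 10.44 and 10.83 with allogeneic BN serum. In the second set autologous BN arrays read 7.89, 7.92, 9.08 and 9.77, and the 12 allogeneic BN arrays ran from 7.77 through a median of 8.22 to 9.98. The d60 DRlyp/lyp arrays read 7.61, 8.50, 9.15 and 9.82, and those with IL-1RA added read 7.81, 8.68, 9.35 and 9.95.
With d60 DR+/+ serum Lef1 read 8.44, 9.0, 9.54 and 10.23, and with IL-1B it read 7.61, 8.86, 9.09 and 9.74. All 6 groups of the second set overlapped for Lef1. Their means spanned 0.88, from 8.42 with allogeneic BN to 9.30 with d60 DR+/+ serum, against a pooled SD of 0.81.

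Of the receptor subunits Cd3e was alike in both sets and Cd3g lower in the second. Cd3e group means lay between 9.34 and 9.78 in the first set and between 9.37 and 9.92 in the second. Cd3g means lay between 11.41 and 11.64 in the first set and between 10.37 and 10.83 in the second. The second Cd3e probe set read lower, with group means between 5.38 and 7.0 over both sets.

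Of the coreceptors, Cd8a had group means between 8.14 and 8.35 in the first set. In the second set its lowest mean was that of allogeneic BN (7.56 ± 0.448, SD, n = 12) and its highest that of d60 DR+/+ (8.48 ± 0.336, SD, n = 4). Cd4 means lay between 5.15 and 5.39 in the first set and between 5.46 and 5.82 in the second, close to the array medians of 5.29 to 5.63. Cd28 read below every array's median, from 3.81 to 4.87 over all 53 arrays, so its values carry little signal above the low end of the scale.

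Cd5 means ran from 8.96 to 9.30 in the first set and from 7.62 (allogeneic BN) to 8.40 (d60 DR+/+) in the second. Il7r was bright throughout, with means between 11.41 and 11.59 in the first set and between 10.55 (d60 DR+/+) and 11.10 (autologous BN) in the second. By the brightest probe sets, d60 DR+/+ serum thus gave the highest second-set mean for Tcf7, Lef1, Cd3g, Cd8a and Cd5 and the lowest for Il7r and Cd4. The second Lef1 probe set was also highest there (9.27). The further Cd8a probe sets did not share this: they were highest with d60 DRlyp/lyp (6.67) and allogeneic BN serum (6.94). The second Il7r probe set was as low with allogeneic BN as with d60 DR+/+ serum (9.98 each).

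**Figure D1:**
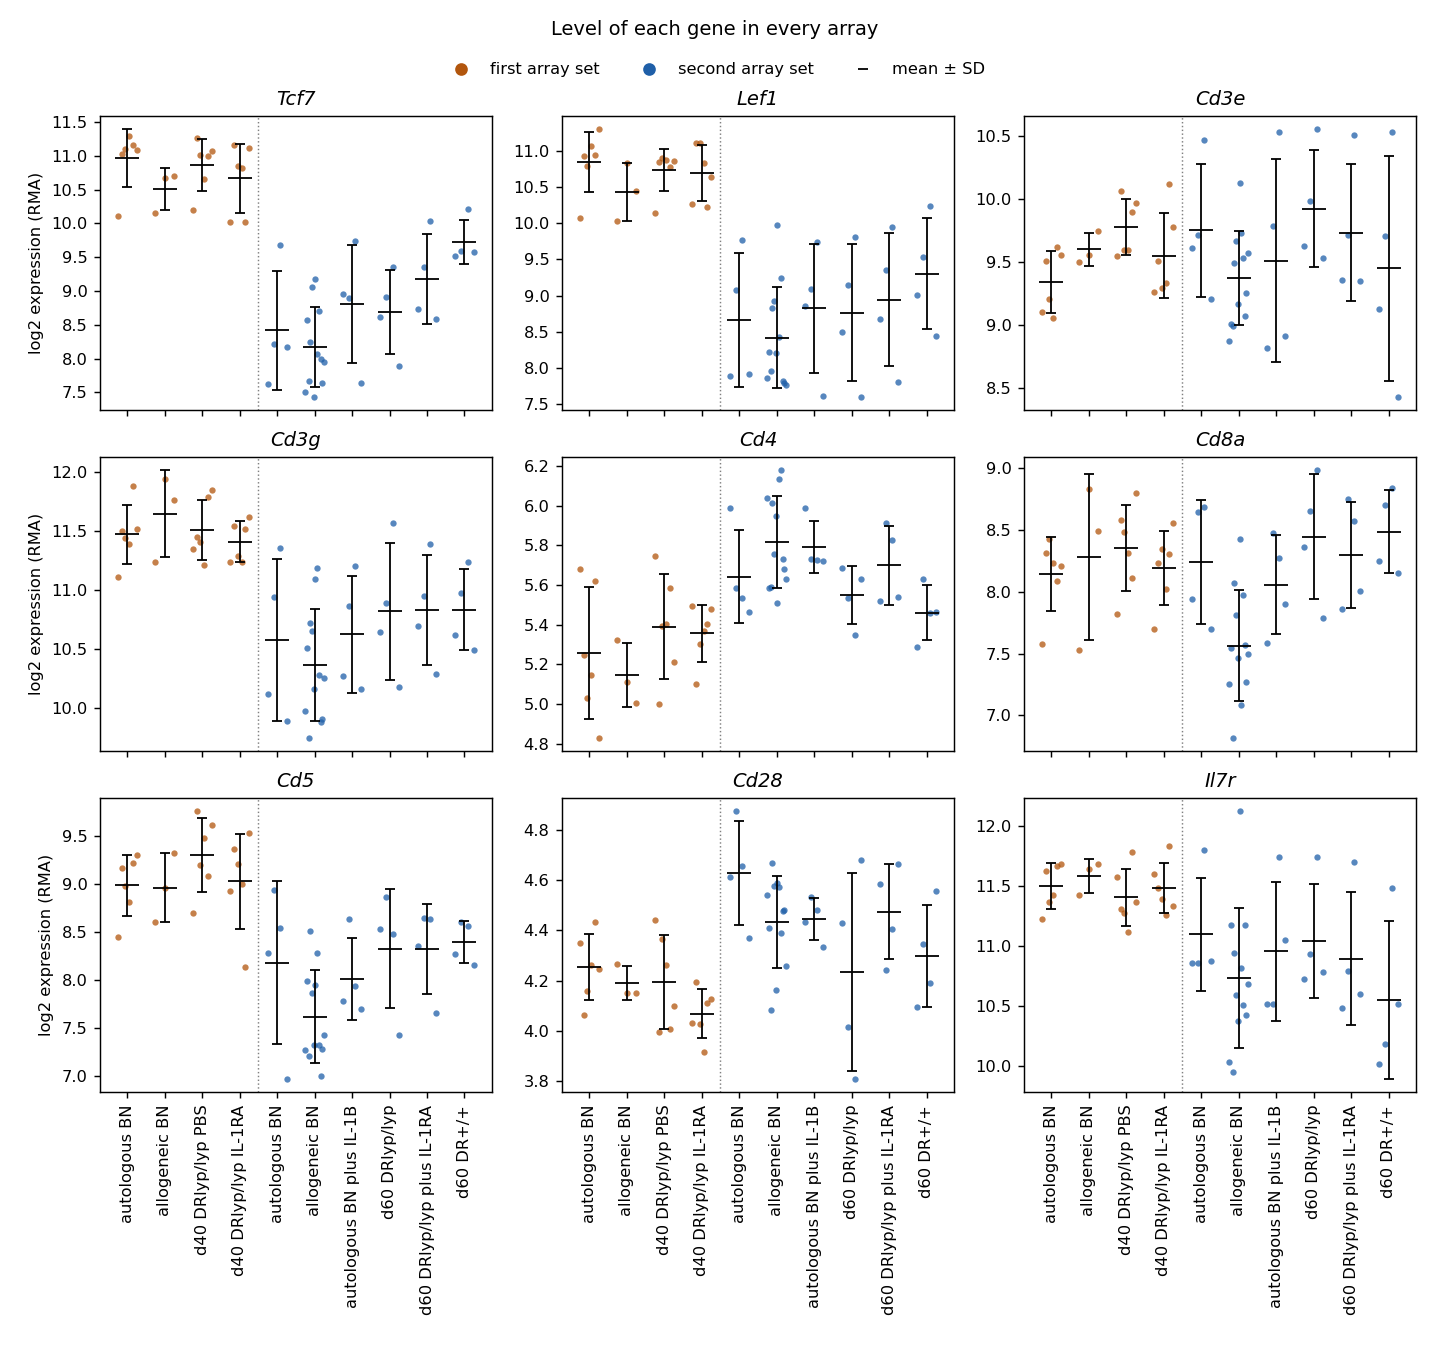
Level of each of the 9 genes (y axis, log2 expression) in every array, by group (x axis), with the first array set in orange and the second in blue; bars give the mean ± SD. Tcf7 and Lef1 stand about 2 log2 units lower in the second set, while Cd3e means lie between 9.34 and 9.92 over both.

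Under the same serum, both transcription factors differed between the array sets far more than the lineage markers did. Since the sets come from the values, these differences are a description without a test. With autologous BN serum, mean Tcf7 was 10.96 ± 0.430 (SD, n = 6) in the first set and 8.42 ± 0.881 (SD, n = 4) in the second, a difference of 2.54 or 5.83-fold, and the sets did not overlap. Such a gap between the sets was common: 32.4% of all genes did not overlap, and the median gene differed by -0.16. Tcf7 stood above 99.9% of genes in the size of its signed difference.
Lef1 was 2.18 higher in the first set (4.54-fold, above 99.7% of genes, no overlap), and its second probe set 1.68 higher with overlap. Among the markers, Cd3g was 0.89 higher, Cd5 0.80 and Il7r 0.40, and Cd8a (-0.10), Cd28 (-0.37), Cd4 (-0.38) and Cd3e (-0.41) were lower, all with overlapping sets. The further Cd8a probe sets differed by -0.20 and -0.60, the latter without overlap.

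With allogeneic BN serum (3 arrays against 12, where 26.2% of genes did not overlap) the differences were 2.34 for Tcf7 and 2.01 for Lef1, again without overlap. Cd5 was 1.34 and Cd3g 1.28 higher without overlap, Il7r 0.85, Cd8a 0.72 and Cd3e 0.23 higher with overlap, Cd28 lay at -0.24 and Cd4 at -0.67, the last without overlap. Values within an array also spread more widely in the first set (mean SD by group 2.22 to 2.27) than in the second (1.95 to 2.12). The share of T cells, the RNA quality seen in the actin difference and the array run may each differ between the sets too. The part of any of these in the differences between the sets was not tested.

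Many genes of the list of naive T factors and homing genes lay on the side of Tcf7 and Lef1. With autologous serum, 10 of 20 measured naive T factors and homing genes were higher in the first set without overlap and 1 was lower, where 11.6% of all genes were higher and 20.8% lower without overlap. They included Bcl11b, which holds T-cell identity (difference 2.74), Klf2, which drives homing receptors (1.91), Foxo1, which acts above Klf2 and Il7r (1.76), Satb1, a chromatin organiser (1.48), and Ets1 (1.39). Bcl11b scattered widely over the autologous arrays of the second set (SD 2.12, against 0.29 in the first). Il2rg, the common cytokine receptor chain, was the gene that was lower without overlap (-0.99).
Of 10 measured Wnt pathway and TCF/LEF target genes, 6 were higher without overlap and 0 lower: Znrf3 by 2.73, Axin2 by 1.54, Apc by 1.38, the corepressor genes Tle3 by 1.26 and Tle4 by 0.68, and Ctnnb1, the gene of beta-catenin, by 0.52. Of 20 other receptor and coreceptor genes, 3 were higher and 1 lower without overlap, with a median of 0.42. The 8 cytotoxic and natural killer genes had a median of -0.86 with 4 lower without overlap, the 5 erythroid genes -1.54 with 4 lower, and the 12 monocyte genes -0.45 with 2 lower. The 13 T-cell activation genes had a median of -0.32, with 1 higher and 4 lower without overlap. For the 7 B-cell genes it was -0.19, with 1 higher and 1 lower. The 8 platelet genes (median -0.76) and 5 neutrophil genes (-0.63) all overlapped between the sets.

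**Figure D2:**
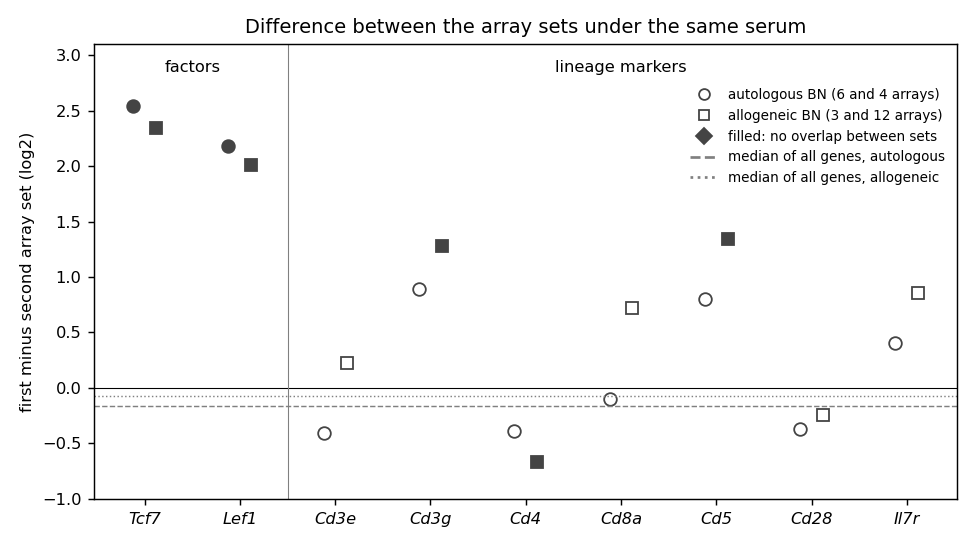
Difference of the group means between the first and second array set (y axis, log2) for each gene under autologous BN (circles) and allogeneic BN serum (squares); filled symbols mark genes whose sets do not overlap and grey lines the median of all genes. Tcf7 and Lef1 differ by 2.01 to 2.54, and the 7 markers by -0.67 to 1.34.

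The main comparison of the study set serum of 60-day DRlyp/lyp rats against autologous BN serum. In limma's fit over all 31042 probe sets, with Benjamini-Hochberg adjusted p under 0.05 as the call, 0 of the 9 genes were called, where 0.0422% of all genes were. At an unadjusted p under 0.05 there was 1 of 9 (Cd28), against 5.72% of all genes. Tcf7 differed by 0.27 (SE 0.390) and Lef1 by 0.10 (SE 0.450). The 7 markers had a median of 0.15, from -0.39 for Cd28 to 0.24 for Cd3g.

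Serum of 60-day DR+/+ rats gave the largest gap between Tcf7 and the marker median among the 11 contrasts. Against autologous BN serum, mean Tcf7 differed by 1.30 (SE 0.390, 2.47-fold) and Lef1 by 0.64 (SE 0.450), the second Lef1 probe set by 0.63. The 7 markers had a median of -0.18, from -0.55 for Il7r to 0.25 for Cd3g. None of these passed: 0 of 9 were called, where 1.56% of all genes were, with an adjusted p of 0.0729 for Tcf7 and 0.496 for Lef1 by limma. At an unadjusted p under 0.05 there were 2 of 9 (Tcf7 and Cd28), against 16.5% of all genes.
The Tcf7 groups overlapped through autologous BN number 9 (9.68), and without that array the difference was 1.72 with an adjusted p of 0.00959. With the array set as an additive term it was 1.24 (adjusted p = 0.0406), and with testing only of probe sets above the median level the adjusted p was 0.0493. Other settings raised the adjusted p by limma. It was 0.377 without autologous BN number 7, 0.198 without number 8 and 0.18 without d60 DR+/+ number 3. With only the 2 groups in the fit it was 0.403, and with each array set fitted alone 0.165. When both array sets were pooled within a group, the value was -0.22 (adjusted p = 0.918), since 6 of the 10 autologous arrays then came from the first set.

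**Figure D3:**
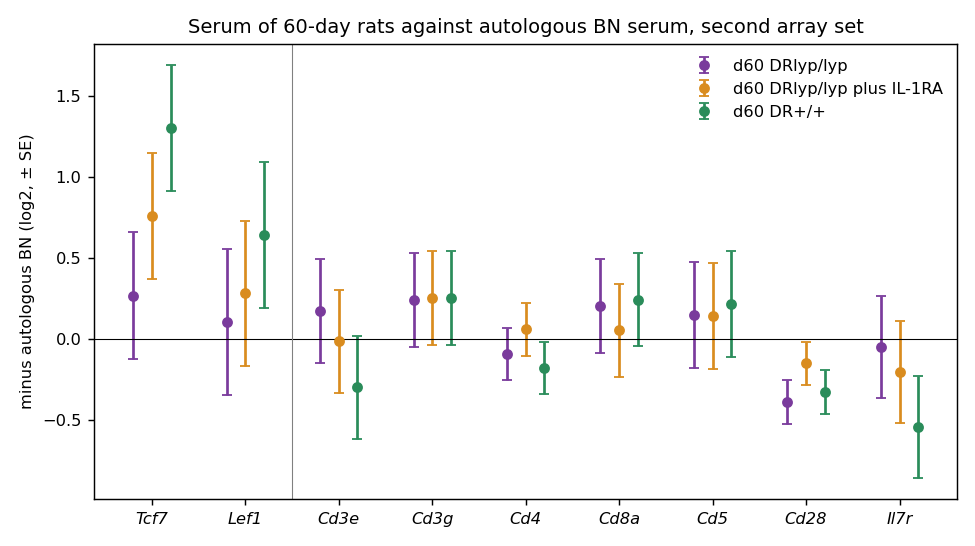
Difference of each gene from autologous BN serum (y axis, log2, with limma's standard error) under the sera of 60-day rats in the second array set, in 4 arrays a group. Tcf7 runs from 0.27 with DRlyp/lyp through 0.76 with DRlyp/lyp plus IL-1RA to 1.30 with DR+/+ serum, and the 7 markers stay between -0.55 and 0.25.

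The same 3 d60 sera were also set against the 12 allogeneic BN arrays of the second set, a reference chosen after the data were seen. With d60 DR+/+ serum, 4 of 9 were called, where 29.4% of all genes were. Tcf7 was 1.56 higher (SE 0.319, 2.95-fold, adjusted p = 0.000728 by limma), and its groups did not overlap, which held for 2.88% of genes. Cd8a was 0.92 higher (adjusted p = 0.00485), Cd5 was 0.78 higher (adjusted p = 0.0288) and Cd4 fell by 0.36 (adjusted p = 0.0411). The further Cd8a probe sets differed by 0.42 and -0.23 and were not called. Lef1 differed by 0.88 (adjusted p = 0.0674), and its second probe set rose by 1.25 (adjusted p = 0.0183).
With d60 DRlyp/lyp serum 1 of 9 was called (27.2% of genes), Cd8a at 0.88 (adjusted p = 0.00857). The further Cd8a probe sets lay at 0.71 and -0.07 and were not called, and the second Cd3e probe set was called at 1.10 (adjusted p = 0.0327). With IL-1RA added 2 of 9 were called (22.7% of genes), Tcf7 at 1.01 (adjusted p = 0.0258) and Cd8a at 0.73 (adjusted p = 0.0285). There the further Cd8a probe sets lay at 0.40 and -0.31 and were not called, and the second Lef1 probe set was called at 1.09 (adjusted p = 0.0472). The allogeneic arrays of the second set had a narrower spread of values within an array (mean SD 1.95) than the other groups there (2.06 to 2.12), and the part of this in the calls was not tested.

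The contrast of the BB strains asked what the lymphopenia mutation changes in the serum. With d60 DRlyp/lyp against d60 DR+/+ serum, 0 of 9 genes were called and so were 0% of all genes. At an unadjusted p under 0.05 there was 1 of 9 (Tcf7), against 6.63% of all genes. Tcf7 differed by -1.04 (SE 0.390, adjusted p = 0.711) and its groups did not overlap, as for 2.17% of genes. Lef1 differed by -0.54, Cd3e by 0.47 and Il7r by 0.49.

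Arrays of these 2 groups with the same number varied together, so differences within a number were also taken. Tcf7 was lower with DRlyp/lyp than with DR+/+ serum in 4 of 4 numbers, by 0.68 to 1.70 in size, and Lef1 in 4 of 4. Cd3e and Il7r were higher in 4 of 4, Cd3e by 0.02 to 1.09 and Il7r by 0.26 to 0.75. So 4 of 9 genes went 1 way in every number, against 19.4% of all genes, and the exact sign-flip p of each (two-sided) was 0.125, the smallest that 4 numbers allow. With the replicate number as a block in limma, the adjusted p of Tcf7 was 0.683, and 0.228 with the block over the 4 groups numbered alike.

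Adding IL-1RA to d60 DRlyp/lyp serum, the test of what interleukin-1 does in it, gave 0 of 9 called and 0% of all genes. At an unadjusted p under 0.05 there were 0 of 9, against 2.59% of genes. Tcf7 differed by 0.49 (SE 0.390), Lef1 by 0.18, Cd3e by -0.19 and Il7r by -0.15. Of the other markers, Cd28 was the highest at 0.24 and 1 of the further Cd8a probe sets, at -0.25, did not overlap between the groups, as for 2.81% of genes. Within a number, Tcf7 was higher with IL-1RA in 4 of 4, by 0.13 to 0.70, and Lef1 in 4 of 4, by 0.13 to 0.20. Cd3e and Il7r were lower in 4 of 4, and 22.1% of all genes went 1 way in every number. The exact sign-flip p of each (two-sided) was 0.125, the smallest that 4 numbers allow. This contrast and the one of the strains share the d60 DRlyp/lyp arrays.

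Neither factor was called in the remaining contrasts of the second set against autologous BN serum. With d60 DRlyp/lyp serum plus IL-1RA against autologous BN serum, 0 of 9 were called (0.0563% of genes), at an unadjusted p under 0.05 also 0 of 9 (9.09% of genes). Tcf7 differed by 0.76 (SE 0.390, adjusted p = 0.543), Lef1 by 0.28 and the markers by a median of 0.05. IL-1B added to autologous serum gave 0 of 9 called (0% of genes) and 0 of 9 at an unadjusted p under 0.05 (2.9% of genes), with Tcf7 at 0.38, Lef1 at 0.16 and a marker median of -0.17.

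Allogeneic against autologous BN serum asks what serum of another healthy rat does, and is the contrast that both sets hold. In the second set 0 of 9 were called (0.0141% of genes), and 2 of 9 had an unadjusted p under 0.05 (22.3% of genes): Cd8a at -0.68 (SE 0.235, adjusted p = 0.136) and Cd5 at -0.56 (SE 0.267, adjusted p = 0.259). Without autologous BN number 10, Cd5 lay at -0.96 and was called (adjusted p = 0.0457). Of the 9 genes 8 lay below 0, as did 59.9% of all genes.
In the first set 0 of 9 were called (0.387% of genes) and 0 of 9 had an unadjusted p under 0.05 (8.1% of genes). There Tcf7 lay at -0.45 and Lef1 at -0.42, and the markers had a median of 0.08. The change between autologous and allogeneic serum was also tested between the sets: 0 of 9 differed, where 0.696% of probe sets did, and the widest was Cd8a at 0.82 (SE 0.372, adjusted p = 0.35). Pooling the sets gave -1.31 for Tcf7, -1.15 for Lef1, -0.77 for Cd5 and -0.47 for Cd8a, all 4 called, in a mix of 3 first-set and 12 second-set allogeneic arrays against 6 and 4 autologous ones.

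The d40 sera were compared within the first set. Serum of DRlyp/lyp rats treated with IL-1RA against those given PBS gave 0 of 9 called (0.00703% of genes) and 0 of 9 at an unadjusted p under 0.05 (1.22% of genes). Here 8 of 9 lay below 0, as did 62.5% of all genes, with Tcf7 at -0.20, Lef1 at -0.04 and Cd5 the lowest at -0.27. Same-numbered arrays of these groups varied together. Within a number, Cd3e and Cd8a were lower with IL-1RA in 5 of 6 (exact sign-flip p = 0.0938 and 0.125, two-sided). Il7r was higher in 5 of 6 (0.0938), and Tcf7 was lower in 4 of 6 and Lef1 in 3 of 6. None went 1 way in all 6 numbers, as 5.97% of all genes did. Against autologous BN serum, the PBS serum gave 0 of 9 called (0% of genes), with 0 of 9 (2.08% of genes) at an unadjusted p under 0.05. The IL-1RA serum gave 0 of 9 called (0% of genes), with 0 of 9 (0.528% of genes) at an unadjusted p under 0.05. The largest differences there were Cd3e with PBS serum (0.43) and Tcf7 with IL-1RA serum (-0.30).

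Genes of the same pathways were read in the same fit, with each list counted against the share of all genes called. With d60 DR+/+ against autologous BN serum (1.08% of genes called higher and 0.485% lower), 2 of 20 other naive T factors and homing genes rose and 0 fell. Runx1, a partner of TCF-1 at T-cell enhancers, rose by 0.99 (adjusted p = 0.00163) and Klf2 rose by 1.35 (adjusted p = 0.0234). The list's median was 0.21 against -0.055 for all genes, and Bcl11b (1.67, adjusted p = 0.152), Satb1 (0.81, 0.0889) and Runx3 (0.70, 0.0798) did not pass.
Of 20 other receptor and coreceptor genes 1 rose, Fyn, a receptor-proximal kinase, by 0.95 (adjusted p = 0.0187), and 0 fell. Cd3d (-0.27), Cd247 (-0.15), Lck (0.11) and Zap70 (-0.35) were not called. Of 10 Wnt and TCF/LEF target genes and 13 T-cell activation genes, 0 passed in either direction, with medians of 0.27 and 0.06.

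Markers of other cells moved in the same contrast. Of 12 monocyte genes 3 rose: the pore protein gene Mpeg1 by 2.23, the lipopolysaccharide coreceptor Cd14 by 1.70 and the Fc receptor Fcgr2b by 1.27. The mean level of the monocyte list ran from 7.45 to 7.92 with d60 DR+/+ serum and from 6.72 to 7.15 with autologous serum. It ran from 7.55 to 7.61 with d60 DRlyp/lyp serum, where Tcf7 differed by 0.27. Of 8 platelet genes 2 fell (Mmrn1 at -1.52 and Gp5 at -1.22, list median -1.17), and of 8 cytotoxic genes 1 fell (Gzmb at -0.63). Of the 7 B-cell, 5 erythroid and 5 neutrophil genes 0 were called. The part of cell composition in the Tcf7 value was not tested.

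With allogeneic against autologous serum in the first set (0.0492% of genes called higher and 0.338% lower), 1 of 20 receptor genes fell, Rasgrp1, an activator of Ras behind the receptor, by 1.26 (adjusted p = 0.0192). Of 10 Wnt genes 1 fell, Axin2, a feedback gene induced through TCF and LEF proteins, by 1.32 (adjusted p = 0.0284). The difference between 3′ and 5′ actin read 3.60, 0.76 and 2.81 on these allogeneic arrays and 3.20 to 4.31 on the autologous ones, and its part in these falls was not tested. In the other 9 contrasts the pathway lists had 0 calls.

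Over arrays, the genes other than Cd4 and Cd28 mostly varied together in the second set. The share of passing pairs among other genes is not given, so the counts below do not set these genes apart. Genes outside the set also reached a high r with them, such as Trim14 with Tcf7 (0.92) and Mrps15 with Cd5 (0.92). The family held 72 pairs, 36 in each set, tested by permutation (100000 resamples, two-sided, Benjamini-Hochberg over 72). In the second set 18 of 36 pairs passed for both Pearson's r and Spearman's rho, all 18 among the 21 pairs without Cd4 and Cd28, whose r ran from 0.28 to 0.86 with a median of 0.70. Of the 15 pairs with Cd4 or Cd28, 0 passed. In the first set 8 of 36 passed, 7 of them among the 21 pairs, whose r ran from -0.30 to 0.86 with a median of 0.43. The other was Cd4 with Cd8a, at r = -0.53 and rho = -0.53 (permutation p = 0.012 and 0.015, adjusted 0.031 and 0.042, r = -0.56 without 2 arrays).
Tcf7 and Lef1 went together in both sets, with r = 0.85 and rho = 0.84 over 32 arrays (permutation p = 1e-05 each, adjusted 7.2e-05 and 9e-05) and r = 0.86 and rho = 0.68 over 21 (permutation p = 1e-05 and 0.00071, adjusted 7.2e-05 and 0.0034). The value of 1e-05 is the smallest these permutations can give. Without the 2 arrays farthest from the Tcf7 median, r was 0.81 and 0.84. Tcf7 and Cd3e had r = 0.56 in the second set (rho = 0.54, permutation p = 0.00098 and 0.0016, adjusted 0.0039 and 0.0069, 0.44 without 2 arrays) and 0.09 in the first (rho = 0.09, permutation p = 0.69 and 0.7, adjusted 0.8 and 0.81, 0.25 without 2 arrays). Lef1 and Cd3e had r = 0.75 in the second set (rho = 0.71, permutation p = 1e-05 and 3e-05, adjusted 7.2e-05 and 0.00018, 0.71 without 2 arrays) and -0.03 in the first (rho = -0.04, permutation p = 0.91 and 0.86, adjusted 0.93 and 0.92, -0.27 without 2 arrays). Arrays share sera and, where numbers match, vary together, so they are not fully independent and these p-values are too small.

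**Figure D4:**
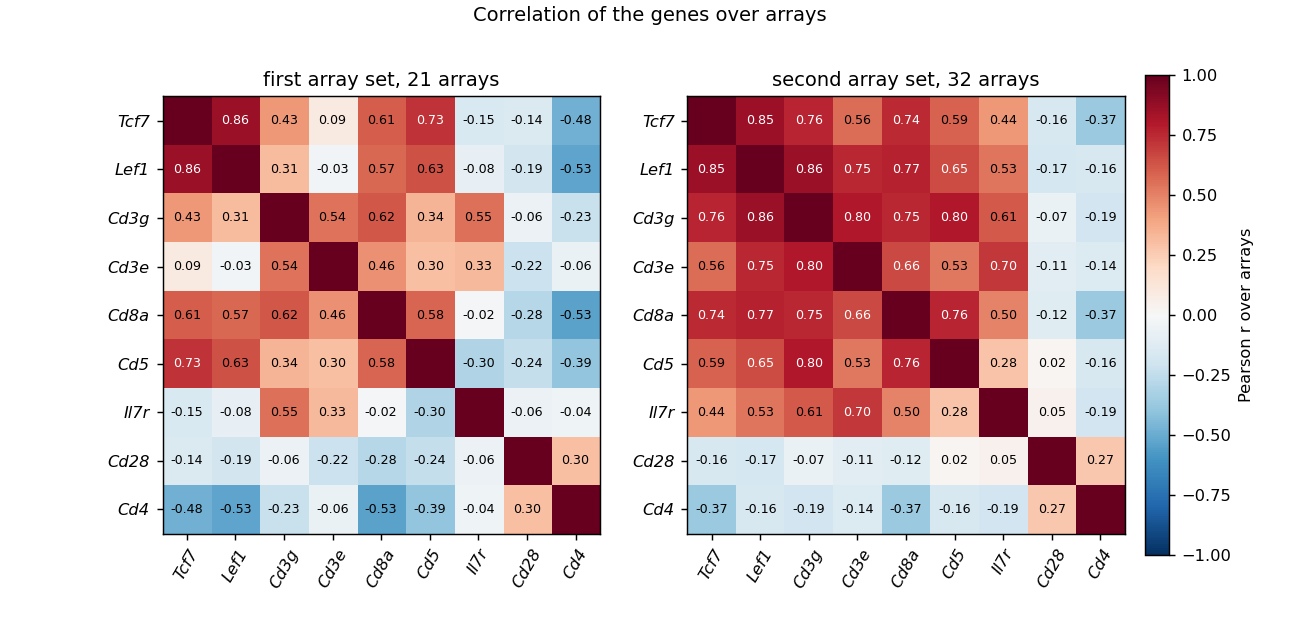
Pearson r between each pair of genes over the 21 arrays of the first set (left) and the 32 of the second (right), from -1 in blue to 1 in red. Tcf7 with Lef1 is 0.86 and 0.85, and Lef1 with Cd3e is -0.03 and 0.75. Pairs with Cd4 or Cd28 run from -0.53 to 0.30 in the first set and from -0.37 to 0.27 in the second.

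The genes most alike to each member by Pearson r over the 32 arrays of the second set were then read off all 14217, with r over the 21 first-set arrays beside it, as a description. For Tcf7 they were Trim14 (0.92, first set 0.70), Eeig1 (0.91, 0.75) and Gar1 (0.91, 0.51), and for Lef1 Lrig1 (0.92, 0.66), Scrn1 (0.91, 0.60) and Slc9a9 (0.91, 0.71). For Cd3g they were Gimap7 (0.93, 0.60), Usp40 (0.92, 0.74) and Ifi27l2b (0.91, 0.67), and for Cd3e Lcmt1 (0.91, 0.65), Paqr5 (0.91, 0.45) and Sphk1 (0.90, 0.51). Cd5 went with Mrps15 (0.92, 0.69), Zfp637 (0.91, 0.81) and Ldlrad4 (0.91, 0.83), Cd8a with Uck1 (0.90, 0.68), LOC100909675 (0.90, 0.57) and Lrrc42 (0.89, 0.69), and Il7r with Uri1 (0.91, 0.44), Tsc22d3 (0.89, 0.73) and Tagap (0.87, 0.63). Cd4 and Cd28 had no gene as close: the nearest were Smpx (0.75, 0.12) and Islr2 (0.64, -0.02).

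A further pattern of the second set followed the array number rather than the serum. In the 4 groups numbered 1 to 4, number 3 was the highest array in 4 of 4 groups for Tcf7, Lef1, Cd3e, Cd3g and Il7r, 5 of 9 genes, which held for 7.86% of all genes. Cd3e in number 3 read 10.55 with d60 DRlyp/lyp, 10.51 with IL-1RA added, 10.53 with d60 DR+/+ and 10.53 with IL-1B, a spread of a few hundredths, while the other numbers ran from 8.43 to 9.98. Number 2 was the highest in 4 of 4 groups for Cd5. Number 4 was the lowest in 4 of 4 groups for Lef1, Cd3g and Cd5, 3 of 9, against 2.6% of all genes. The labels do not say what a number stands for.

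**Figure D5:**
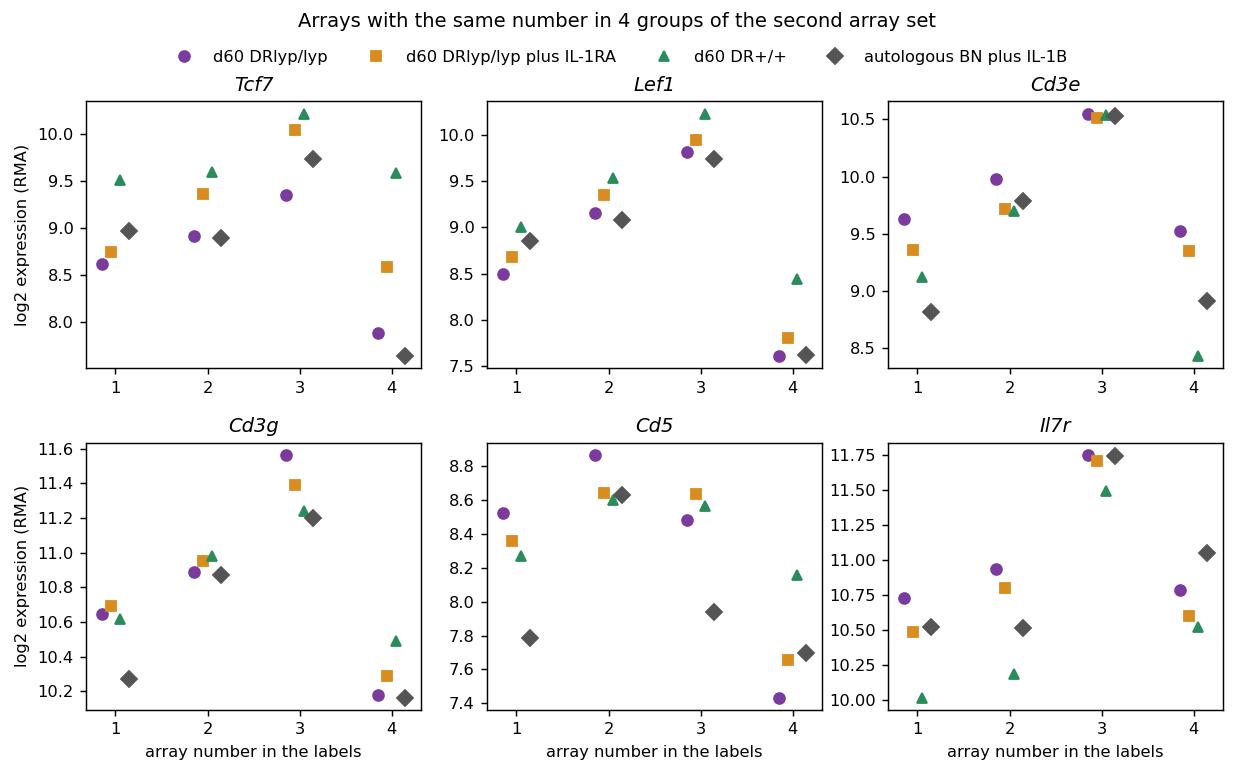
Level (y axis, log2 expression) of 6 of the genes in the 4 groups of the second array set numbered 1 to 4, by array number (x axis, a label without order), with 1 symbol for each serum. Number 3 is the highest array in all 4 groups for Tcf7, Lef1, Cd3e, Cd3g and Il7r, and Tcf7 with d60 DR+/+ serum lies above the other sera at every number.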

How the data were processed

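The deposited table held log2 expression per probe set of Affymetrix rat arrays, made by the authors with RMA (background correction, normalisation between arrays, probe summary) and Partek 6.2, per the submitters' processing notes. RMA's version is not given in the sources. RMA compresses differences near background. Of 31099 probe sets 57 were controls and 31042 were tested. GEO's annotation gave 1 symbol for 20826, several for 436 and none for 9780, and 0 sample columns were left out. No pair of arrays correlated above 0.999. For arrays, their number limits the precision.

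One model with a mean for each of 10 cells (8 groups, autologous and allogeneic BN split by array set), checked on simulated data, took all 53 arrays into limma 3.58.1 (lmFit, eBayes with a variance trend) in R 4.3.3, adjusted over 31042 probe sets and called at 0.05. Clustering, permutations and figures used Python 3.11.15, scikit-learn 1.9.0, scipy 1.17.1 and matplotlib 3.10.9.

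The members and lists were chosen with earlier results of these data known. Named were the 9 genes, the 3 most alike genes of each (1 for Cd4 and Cd28), and up to 4 called genes of each list per comparison; other genes were picked after their values were seen. Pairing was checked by the correlation of same-numbered arrays: the lowest r was above 0.1 for d60 DRlyp/lyp against d60 DR+/+ (0.175), d40 IL-1RA against PBS (0.401) and d40 IL-1RA against autologous BN (0.129). Alternatives covered the array sets, samples in the fit, normalisation, filter, variance model, actin covariate, replicate block, threshold and each array left out. The promoters came from RefSeq (GRCr8).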

Additional observations from a re-analysis of the deposited data

Results flagged for a closer look

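In groups of 4 to 10 arrays, 72 sets of values were searched for an array far from the others, and 5 were found; chance gives about 1 in 20. Tcf7 in autologous BN number 1 of the first set read 10.11, with the nearest at 11.03. Tcf7 in d60 DR+/+ number 3 read 10.21 against 9.59 for the nearest. Lef1 in d40 PBS number 1 read 10.14 against 10.78. Cd4 in IL-1B number 1 read 5.99 against 5.73. Il7r in autologous BN number 9 of the second set read 11.80 against 10.87.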

How the results depend on the processing

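Of 237 alternatives to the counts of called genes, the array sets and the test between sets, 228 kept the value. Pooling the array sets gave 4 called genes for allogeneic against autologous BN in place of 0, and turned Cd8a in the first set from 0.14 to -0.47 (adjusted p = 0.0317). For d60 DR+/+ against autologous BN, the array set as an additive block and the filter on probe sets above the median each gave 1 called gene (Tcf7), and leaving out each replicate gave 0 to 1, with 1 without autologous BN number 9. The same range of 0 to 1 held for allogeneic against autologous BN in the second set, with 1 (Cd5) without autologous BN number 10. With the allogeneic reference, chosen after seeing the data, 1, 4 and 2 genes were called for d60 DRlyp/lyp, d60 DR+/+ and d60 DRlyp/lyp plus IL-1RA. Over its other alternatives the adjusted p of Tcf7 with d60 DR+/+ serum ran from 0.00959 to 0.918. The replicate block gave 0 called genes in each of the 7 comparisons that share numbers, as without it. It moved the uncalled factor values of allogeneic against autologous BN, whose numbers did not pair the arrays: in the first set Tcf7 went from -0.45 to -0.23 and Lef1 from -0.42 to -0.17, and in the second Tcf7 from -0.25 to 0.06 and Lef1 from -0.24 to 0.32. For IL-1RA added to d60 DRlyp/lyp serum, where the lowest correlation of same-numbered arrays was 0.0706 and the numbers were not taken as pairs, the block gave Tcf7 0.49 (adjusted p = 0.261) and Lef1 0.18 (adjusted p = 0.595) by limma. The mean correlation of same-numbered arrays was 0.384 there, the same as for d60 DRlyp/lyp against d60 DR+/+ serum. Within a number Tcf7 and Lef1 were higher with IL-1RA in 4 of 4, and Cd3e and Il7r lower in 4 of 4, where 22.1% of genes went 1 way in all 4. No paired analysis was made for the d60 and IL-1B sera against autologous BN because they share no numbers. Whether arrays with different numbers vary together was not checked. With 4 arrays a group, the SE of a Tcf7 difference was 0.390. Even the Tcf7 difference of 1.30 for d60 DR+/+ against autologous BN was not called in the main fit (adjusted p = 0.0729 by limma). A Tcf7 difference that was not called is therefore not shown to be absent or small.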
